A study of Mus musculus with 2 samples.

Results

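Mast cells carrying RNA of G2 and mitosis made up 1889 of 24344 mast cells (7.76%, exact 95% binomial interval 7.43% to 8.10%) in 1 droplet library of colonies grown from mouse aorta. They were 5.56% of the 33964 barcodes that passed the filters, which asked for at least 500 genes, at least 1000 gene UMIs and at most 10% mitochondrial UMIs. A UMI is a random tag that lets each captured RNA molecule be counted once. A barcode counted as a mast cell when Cpa3 and Cma1, which encode a carboxypeptidase and a chymase of mast cell granules, together made up at least 1.5% of its gene UMIs. Its macrophage genes C1qa, C1qb and C1qc had to stay under 0.1%, and Col1a1, Col1a2, Col3a1 and Dcn of fibroblasts under 0.2%. The G2/M mast cells, as they are called here, were then selected on 2 more measures: UMIs of at least 4 of the 6 genes Ccnb1, Ccnb2, Cenpa, Cenpf, Ube2c and Cdc20, and fewer than 1500 CPM (UMIs counted per-million of gene UMIs) of the replication-linked histone genes Hist1h1b, Hist1h2ap and Hist1h2ae. They were compared with the 18473 mast cells (75.9%) that had UMIs of 0 or 1 of the 6 genes. Selection and description used the same cells of the same library, so every difference below is a description of these cells and no test was possible.

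The cells came from dorsal aorta of male C57BL/6J mice (2 animals, age 12 weeks), for which the labels give no treatment or altered genotype. Aortas were digested with Liberase, a collagenase blend, and the cells grew for 14 days in methylcellulose, a gel-like medium that keeps the offspring of each progenitor together as a colony. Colonies scored as CFU-M, macrophage colony-forming units, were harvested, cells that exclude DAPI were sorted as viable, and RNA was counted from its 3′ end with the 10x v3.1 chemistry. MULTI-seq lipid tags, whose own library is not analysed here, marked the pooled suspensions. No label ties cells to 1 of the 2 mice, so there is no replicate, and all intervals cover counting error only.

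One feature of the library goes against its labels. Xist, the RNA of the inactive X chromosome in females, was counted in 49.7% of G2/M mast cells and in 62.3% of the compared cells after each cell had been thinned at random to 6000 UMIs, although both mice are labelled male. Any of the Y-linked genes was counted in 18.7% and 16.9% of the same cells. Both were counted together in 6.38% of G2/M mast cells. Xist stood at 280 CPM over the summed G2/M mast cells and 437 CPM over the compared cells, a log2 ratio of -0.64. The deposited matrix also holds counts of 3 tags, and by a rule drawn up on these data the tag named Cafum alone marked 1042 G2/M mast cells (55.2%) and 49.1% of the compared cells. Scrublet, which scores barcodes for likeness to simulated pairs of cells, called 310 G2/M mast cells (16.4%) and 10.0% of the compared cells doublets. It was run with an expected doublet rate of 27.85%, and 45.85% of simulated pairs passed its threshold, so uncalled doublets can remain. The part of Xist, the tags and doublets in the results was not tested. The exceptions are values given with the called doublets left out or with Cafum cells only.

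Cells in G2 have copied their DNA and prepare to divide. In mitosis cyclin B with the kinase Cdk1 drives condensation of chromosomes, assembly of the spindle and attachment of kinetochores, until the ubiquitin ligase APC/C, activated by Cdc20, marks cyclin B and securin for destruction and the chromosomes separate. The genes of this programme share promoter elements: CCAAT boxes bound by NF-Y, and the CHR element, a short motif through which the MuvB complex holds the genes off as DREAM and activates them together with B-Myb and FoxM1. Mast cells are tissue immune cells that store proteases, histamine and heparin in granules, and unlike most granulocytes they can keep dividing while they hold granules.

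Promoter letters are shown for 5 genes, chosen because 3 of them helped to select the cells and the other 2, Cdk1 and Top2a, did not. Each runs from 120 to 10 bases before the transcription start in the RefSeq table of build GRCm38.p6, on the strand of the gene, with the CHR element (TTTGAA or TTCGAA) and CCAAT in capitals on either strand, so that the reverse forms TTCAAA and ATTGG also stand in capitals. Ccnb2, cyclin B2, lies at chr9:70421564-70421674 on the minus strand. Ube2c, the APC/C's ubiquitin-conjugating enzyme, lies at chr2:164769809-164769919 on the plus strand. Cdc20, the APC/C activator, lies at chr4:118437353-118437463 on the minus strand. Cdk1, the mitotic kinase, lies at chr10:69352922-69353032 on the minus strand. Top2a, the topoisomerase that untangles sister chromosomes, lies at chr11:99024199-99024309 on the minus strand.
Ccnb2: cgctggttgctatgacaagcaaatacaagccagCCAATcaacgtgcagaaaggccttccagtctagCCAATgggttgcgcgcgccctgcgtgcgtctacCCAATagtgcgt
Ube2c: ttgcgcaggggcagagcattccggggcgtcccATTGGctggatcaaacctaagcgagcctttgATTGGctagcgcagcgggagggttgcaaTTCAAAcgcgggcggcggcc
Cdc20: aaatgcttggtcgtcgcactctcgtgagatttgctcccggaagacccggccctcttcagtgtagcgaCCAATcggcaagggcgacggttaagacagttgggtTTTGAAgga
Cdk1: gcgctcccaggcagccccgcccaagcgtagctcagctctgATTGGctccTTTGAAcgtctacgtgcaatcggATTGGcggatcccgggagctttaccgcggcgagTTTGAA
Top2a: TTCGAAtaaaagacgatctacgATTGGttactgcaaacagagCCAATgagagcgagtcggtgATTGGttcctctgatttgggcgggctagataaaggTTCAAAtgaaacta
Ccnb2 held 3 CCAAT boxes, starting 87, 54 and 21 bases before the start, with CHR letters outside the printed stretch, at 167 bases before the start and 5 bases after it. Ube2c held 2 reversed CCAAT boxes at 88 and 57 bases and a reversed CHR at 29 bases, and farther out a CCAAT at 186 bases and a reversed one at 183 bases share letters. In Cdc20 a CCAAT at 53 bases and a CHR at 18 bases are printed, and another CCAAT begins 8 bases before the start. Cdk1 held reversed CCAAT boxes at 80 and 48 bases and CHR letters at 71 and 15 bases. Top2a held 3 CCAAT boxes at 98, 78 and 58 bases, a TTCGAA at 120 bases and a reversed CHR at 23 bases. These are matches of letters only.

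Over all 27025 RefSeq promoters, 17.4% held a CHR element in the 250 bases before the start, 34.5% held a CCAAT and 6.21% held both. Among the genes at least 2-fold higher in G2/M mast cells, with the 6 genes of the rule left out, 152 had a promoter in the table, and 30.3% of those held a CHR element, 57.9% a CCAAT and 24.3% both. Of these promoters 30.3% held 2 or more CCAAT boxes, against 10.5% of all promoters. The 6163 promoters of all compared genes held a CHR in 12.2%, a CCAAT in 36.5% and both in 4.97%. For the 63 promoters of genes at least 2-fold lower the shares were 19.0%, 30.2% and 4.76%. The choice of window moved the first element most: with the 50 bases after the start included, the CHR share of the 152 promoters was 50.0%, against 19.4% of all. The start used for a gene matters to such shares. Of 20595 symbols, 88.4% had a RefSeq start matched to an annotated transcript. A match did not require the same base, so matched starts can lie apart. Of the printed stretches, those of Ube2c and Cdk1 reach into the gene as annotated, while those of Ccnb2, Cdc20 and Top2a do not. Motif positions therefore hold for the RefSeq start only.

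The selection itself set a broad class of cells. Of the 1889 G2/M mast cells, 668 had UMIs of 4 of the 6 genes, 558 of 5 and 663 of all 6. Cenpa, the histone H3 variant of centromeres, was the gene found most often (99.3% of the cells), followed by Ccnb2 (97.1%), Ube2c (94.1%), Cenpf (89.3%), Ccnb1 (66.3%) and Cdc20 (53.6%). Their selection values ranged from 1.52% to 7.19% for Cpa3 and Cma1 (median 3.12%, compared cells 4.33%) and from 0 to 1494 CPM for the 3 histone genes together (median 152, compared cells 98.0). Just inside the threshold, in the 668 cells with 4 of 6, Ccnb2 stood at 154 CPM, Cenpa at 352 CPM, Ube2c at 113 CPM and Cenpf at 91.6 CPM. Just outside it, in the 934 cells with 3 of 6 under the same histone limit, the levels were 105 CPM, 197 CPM, 69.6 CPM and 24.9 CPM. At the histone limit, 79 cells with 1000 to 1500 CPM lay just inside and 74 cells with 1500 to 2000 CPM just outside, with Ube2c at 567 CPM and 451 CPM. Of the 3059 mast cells with at least 4 of the 6 genes, 1170 (38.2%) were kept out by the histone limit.

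How many mast cells met the rule followed how deeply a cell was counted. G2/M mast cells held a median of 19900 gene UMIs (2734 to 111698) and 4503 genes, and compared cells a median of 10263 UMIs. Their share was 0.269% of mast cells under 5000 UMIs, 1.53% from 5000 to 10000, 8.19% from 10000 to 20000, 18.3% from 20000 to 40000 and 34.6% above that, as the plot of share by depth shows. More RNA per cell in cells about to divide and a better chance of catching 4 genes in a deeper cell cannot be told apart here. After thinning to 6000 UMIs, which left out 9 G2/M mast cells, 943 of 1880 (50.2%) still had UMIs of at least 4 of the 6 genes. Thinned in the same way, 6.55% of all mast cells, 1.54% of 1237 macrophage barcodes and 3.48% of 4424 fibroblast barcodes had at least 4.

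**Figure D1:**
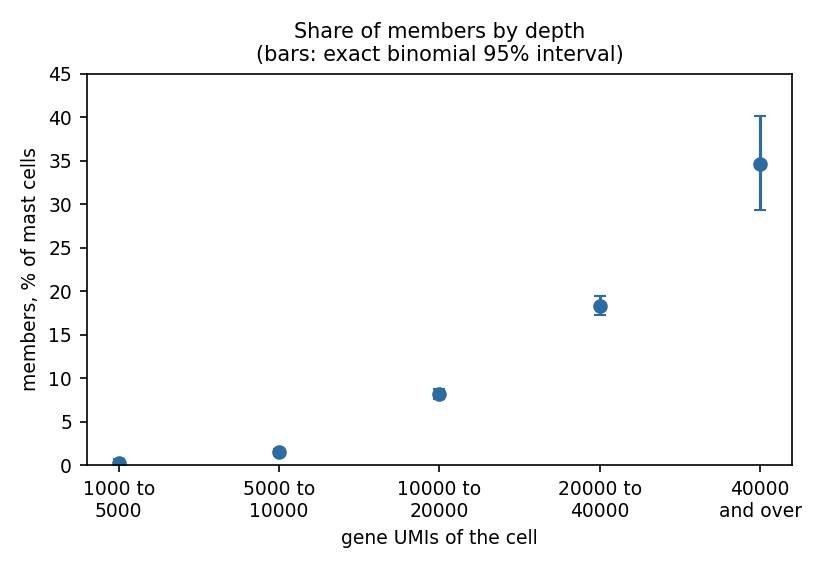
Share of mast cells that met the rule for G2/M mast cells (vertical axis, percent) in 5 classes of gene UMIs per cell (horizontal axis); points are shares and bars exact 95% binomial intervals. The share was 0.269% in the shallowest class and 34.6% in the deepest.

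In G2/M mast cells 196 of the 7669 genes compared (2.56%) were at least 2-fold higher than in the compared cells and 84 (1.1%) at least 2-fold lower. A gene entered this comparison when the mean of its 2 CPM values was at least 10, and the median log2 ratio over all 7669 genes was 0.06. A gene near 0 in the compared cells could enter only by a high level in G2/M mast cells. This can raise the shares and medians of the mitosis lists below, which are therefore no support for the label. Of listed genes, 17 of 23 cyclins and kinases, 26 of 36 kinetochore and centromere genes and 10 of 14 checkpoint genes entered. For the spindle and cytokinesis lists it was 33 of 37 and 16 of 16. A level is the CPM of a gene in the UMIs summed over all cells of a group. The shares of 2.56% and 1.1% are the background for the list counts against the compared cells that follow. The 6 genes of the rule had log2 ratios from 4.87 (Ccnb1) to 6.97 (Cenpf), which the selection fixes. Of the 196 higher genes, 120 belonged to the lists of cell division genes that follow, and 75 to no list. The 120 include the 6 genes of the rule. The lists were chosen with earlier results of these data known, and their share of all compared genes was not counted, so the 120 has no background. No compared gene of the 8 mitosis lists described next, from cyclins to chromosome proteins, was at least 2-fold lower, as the plot of list members shows.

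**Figure D2:**
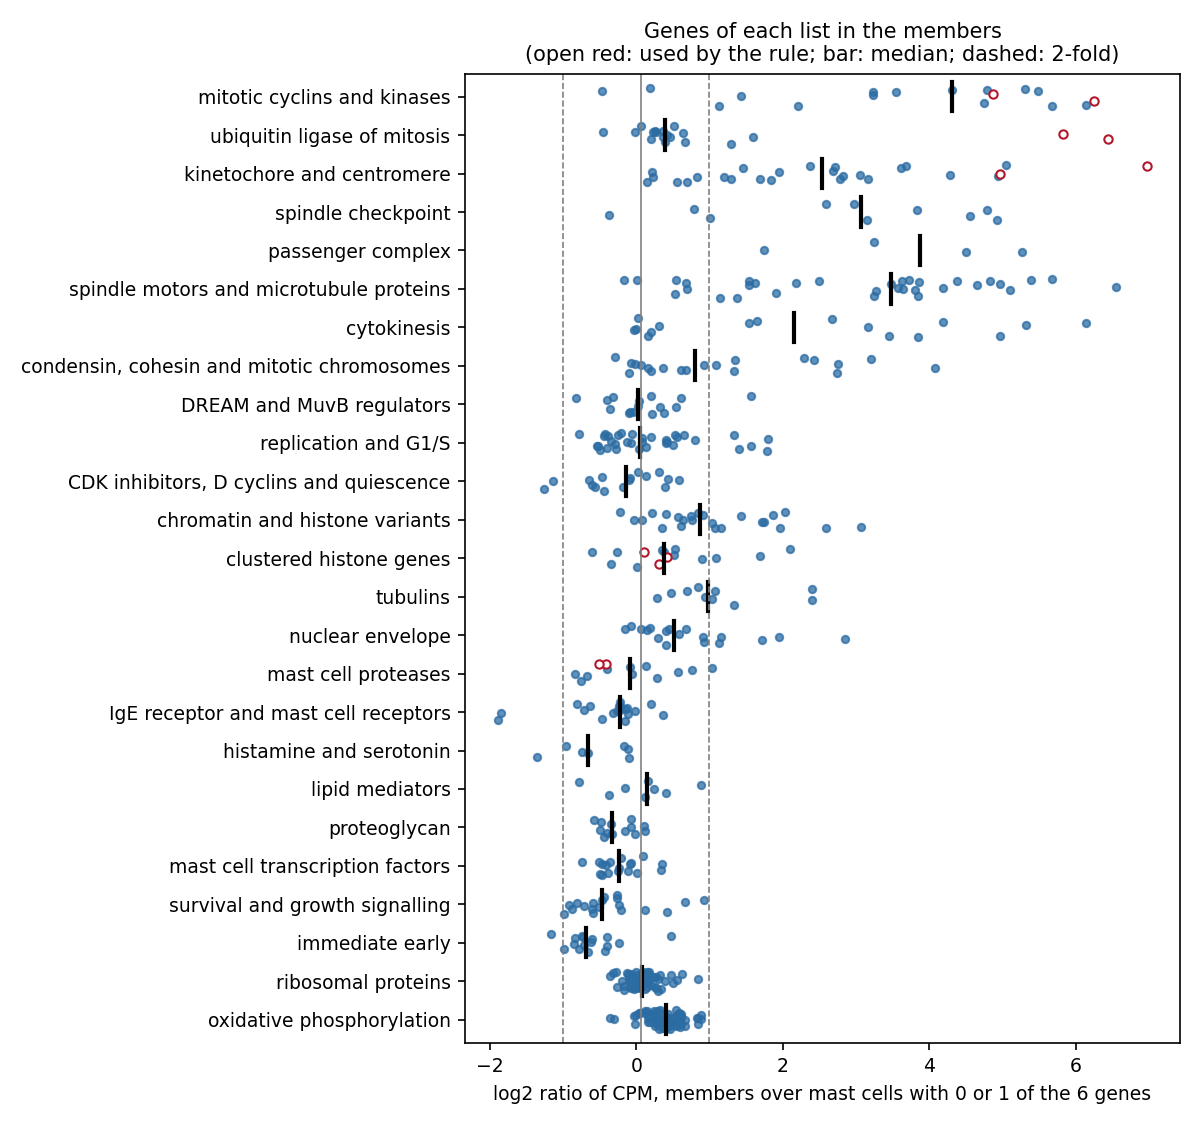
Log2 ratio of CPM in G2/M mast cells over mast cells with 0 or 1 of the 6 genes (horizontal axis) for each compared gene of 25 lists (rows); open red points are genes the rule used, bars are list medians and dashed lines mark 2-fold. The cyclin and kinase list has a median of 4.31 and the histamine and serotonin list of -0.65.

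The cyclins and kinases that drive mitosis were among the genes with the highest ratios. Without Ccnb1 and Ccnb2, which the rule used, 13 of 15 compared members were at least 2-fold higher and none lower, with a median log2 ratio of 3.54 against 0.06 over all genes. Plk1, the polo-like kinase of mitotic entry and centrosome maturation (chr7:122159439-122169873, GRCm38, plus strand), stood at 47.4 CPM against 0.676 CPM, a log2 ratio of 6.13 (95% counting interval 5.89 to 6.38). In thinned cells it was seldom caught: G2/M mast cells held from 0 to 5 UMIs of Plk1 with a median of 0, and 80.1% held none. Nek2, a kinase that separates centrosomes, stood at 25.4 CPM against 0.499 CPM. Ccna2, cyclin A2 of S phase and G2, stood at 102 CPM against 2.59 CPM (log2 5.31, 5.18 to 5.44). Cdkn3, a phosphatase that acts on cyclin-dependent kinases, stood at 137 CPM against 5.08 CPM. Of the small subunits that bind Cdk1, Cks1b was 3.54 and Cks2 1.43 higher on the log2 scale. Wee1, the kinase that restrains Cdk1, stood at 16.5 CPM against 22.8 CPM (log2 -0.47), and Cdc25a, a phosphatase that activates cyclin-dependent kinases, at 12.0 CPM against 10.6 CPM, so these 2 did not pass 2-fold.

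The ubiquitin ligase of mitosis differed within itself. Without Ube2c and Cdc20, 2 of 17 compared members were at least 2-fold higher, and the median log2 ratio was 0.36. Ube2s, which lengthens the ubiquitin chains the APC/C builds, stood at 286 CPM against 94.5 CPM (log2 interval 1.57 to 1.63). Core subunits did not reach 2-fold: Anapc13 had 144 CPM against 146 CPM, Anapc15 had 116 CPM against 159 CPM and Anapc11 had 197 CPM against 137 CPM. The other 15 compared genes outside the rule did not reach 2-fold in either direction.

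Among kinetochore and centromere genes, the structures by which chromosomes hold the spindle, 18 of 24 compared members outside the rule were at least 2-fold higher (median 2.16). Cenpe, the motor that moves chromosomes to the spindle equator, stood at 101 CPM against 3.06 CPM (log2 5.05). Cenpw, a DNA-binding subunit of the inner kinetochore, stood at 184 CPM against 28.6 CPM (2.68). Zwint, Mis12 and Cenpb, other kinetochore and centromere proteins, had log2 ratios of only 0.14, 0.22 and 0.22. Of the spindle checkpoint, which delays separation until all kinetochores are attached, 8 of 10 compared genes were at least 2-fold higher (median 3.07). Bub1 stood at 35.0 CPM against 1.27 CPM and Bub1b at 43.0 CPM against 1.83 CPM, both checkpoint kinases or relatives of them. Mad2l1, which blocks Cdc20, stood at 48.9 CPM against 6.21 CPM. Knstrn, a protein that helps kinetochores hold microtubules, stood at 88.7 CPM against 2.94 CPM, and it was also 1.22 higher on the log2 scale than in mast cells over the histone limit. All 4 members of the chromosomal passenger complex, which corrects wrong attachments, were at least 2-fold higher: Birc5 5.26, Cdca8 4.50, the kinase Aurkb 3.24 and the scaffold Incenp 1.75 on the log2 scale. Birc5 had from 0 to 9 UMIs per thinned G2/M mast cell with a median of 1, and from 0 to 3 with a median of 0 in the compared cells, so the ranges overlap at the low end.

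The spindle list had the most higher genes, 27 of 33 compared (median log2 3.47). Hmmr, a microtubule-binding protein of spindle assembly (chr11:40701395-40733422, minus strand), had the highest ratio of any compared gene outside the rule. It stood at 207 CPM against 2.22 CPM, a log2 ratio of 6.55 (6.41 to 6.68). Per thinned cell, Hmmr ranged from 0 to 11 UMIs with a median of 1 in G2/M mast cells and from 0 to 2 with a median of 0 in the compared cells. It was found in 60.5% of thinned G2/M mast cells, 1.22% of compared cells and 4.04% of macrophage barcodes. Aspm, a spindle pole protein outside the lists, stood at 55.8 CPM against 0.721 CPM (6.27). Kif2c, a motor that takes microtubules apart at kinetochores, stood at 27.2 CPM against 0.649 CPM, and Tpx2, which activates the kinase Aurka on spindles, at 241 CPM against 25.4 CPM. Stmn1, which destabilises microtubules, and Ran, the GTPase that guides spindle assembly around chromosomes, were 2.50 and 1.53 higher on the log2 scale. Numa1, which anchors spindle poles in mitosis and lies in the nucleus between divisions, stood at 48.8 CPM against 48.5 CPM.

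For cytokinesis, the split of the cell body, 10 of 16 compared genes were at least 2-fold higher (median 2.16). Cep55, which recruits the cutting machinery to the bridge between daughter cells, stood at 33.6 CPM against 0.839 CPM (5.32), and the midzone motor Kif20a at 31.4 CPM against 1.00 CPM (4.97). The contractile-ring GTPase Rhoa and the bridge protein Pdcd6ip, which also act outside division, had log2 ratios of 0.17 and 0.20. Of 10 compared tubulins, the subunits of microtubules, 5 were at least 2-fold higher and none lower (median 0.98). Tuba1b stood at 365 CPM against 69.1 CPM and Tubb4b at 248 CPM against 47.0 CPM, both 2.40 on the log2 scale. Tubulin copies are near identical in places and reads could be split between them, so single members are uncertain.

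Of condensin, cohesin and other mitotic chromosome genes, 9 of 20 compared were at least 2-fold higher (median 0.80). Mki67, a coat protein of mitotic chromosomes, stood at 297 CPM against 17.5 CPM (4.08), Ncapg of condensin at 20.6 CPM against 3.06 CPM and Smc4, the ATPase shared by both condensins, at 201 CPM against 79.9 CPM. The cohesin subunit Stag2, which holds sister chromosomes and also folds the genome in resting cells, stood at 100 CPM against 123 CPM (-0.30). H2afz, which encodes the histone variant H2A.Z (chr3:137864487-137866922, plus strand), ranged from 1 to 70 UMIs with a median of 25 in thinned G2/M mast cells, and from 0 to 53 with a median of 6 in the compared cells. Summed over whole cells, it stood at 3983 CPM against 1213 CPM (1.71). Hmgb2, a DNA-bending protein of dividing cells, stood at 1155 CPM against 282 CPM (2.03) and Asf1b, a histone chaperone, at 46.6 CPM against 7.72 CPM (2.59). H3f3a and H3f3b, which encode the H3.3 variant laid down outside replication, had log2 ratios of -0.03 and -0.22. In all, 11 of 24 chromatin genes were at least 2-fold higher. Of the nuclear envelope, which is taken down and rebuilt in mitosis, 5 of 18 were, among them the lamina gene Lmnb1 (2.85), its partner Tmpo (1.72) and the chromatin-bridging Banf1 (1.16), while Lmna, the lamin of differentiated cells, had 0.45.

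Most replication genes were under 2-fold apart between G2/M mast cells and the compared cells. Of 34 compared, 5 were at least 2-fold higher, against 2.56% of all genes. None was lower (median 0.06), though Hells passed 2-fold lower in 4 alternative settings. Rfc5 of the clamp loader (1.81), Dbf4, which activates the kinase that fires origins (1.79), and Rrm1 of ribonucleotide reductase (1.56) had the highest ratios. Pcna, the replication clamp, stood at 67.8 CPM against 88.8 CPM (-0.39), the helicase subunit Mcm6 at 25.8 CPM against 37.1 CPM (-0.52) and the chromatin remodeller Hells at 11.3 CPM against 19.4 CPM (-0.78). Hells was at -1.15 with Cpa3 and Cma1 required at 3%, -1.16 with Cafum cells only, -1.32 with the rule on thinned cells and -1.53 in cells of 10000 to 20000 UMIs. Among DREAM and MuvB subunits, 1 of 16 passed 2-fold: Lin9 of MuvB stood at 15.5 CPM against 5.25 CPM (1.56), Rb1 at 139 CPM against 184 CPM (-0.40) and E2f1 at 7.98 CPM against 14.1 CPM (-0.83), which was past 2-fold in 3 settings (-1.03 to -1.29). Without the histone limit, which lets in 1170 more cells, the log2 ratios were 2.36 for Rrm1, 2.25 for Lin9 and 4.11 for Top2a, which otherwise had 3.20. The same setting turned the sign for Pcna (0.52), Mcm6 (0.38) and Hells (0.46), and E2f1 was at -0.22. The compared cells include 200 over the histone limit, where thinned Pcna stood at 310 CPM and Mcm6 at 160 CPM. In the compared cells under the limit these were 79.3 CPM and 29.2 CPM.

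The 1677 mast cells at or over the histone limit, with any number of the 6 genes, served as a second comparison, and 200 of them are also among the compared cells with 0 or 1 of the 6. Against them, 25 of 7703 compared genes (0.325%) were at least 2-fold higher in G2/M mast cells and 249 (3.23%) at least 2-fold lower. The rule set the limit, so the low histone levels are its result: 13 of 16 clustered histone genes were lower, among them Hist1h3c at 24.4 CPM against 413 CPM. Replication genes were lower in 44 of 52 cases (median -1.85), with Pcna at 67.8 CPM against 229 CPM and Mcm6 at 25.8 CPM against 92.8 CPM. Top2a stood at 363 CPM against 957 CPM (-1.40), Cdk1 at 64.4 CPM against 127 CPM (-0.98) and Aurkb at 25.9 CPM against 70.3 CPM (-1.44). By contrast Plk1 (47.4 CPM against 46.2 CPM), Ccna2 (102 CPM against 106 CPM), Birc5 (268 CPM against 277 CPM) and Kif2c (27.2 CPM against 26.8 CPM) lay near equal levels. Among the few higher genes, Cenpa (1.28) and Cdc20 (1.28) belong to the rule, and Cdkn3 (1.09) and Knstrn (1.22) do not. Larger ratios than these were found outside the lists of cell division genes, such as the haemoglobin genes Hba-a1 and Hbb-bs (median 3.28), Cep89 (1.71) and Sned1 (1.51). Hdc and Btg1, both lower than in the compared cells, were under 2-fold apart here: Hdc stood at 410 CPM against 328 CPM (0.32) and Btg1 at 344 CPM against 268 CPM (0.36). The protease gene Mcpt4 stood at 9830 CPM against 9483 CPM (0.05). Both comparisons use the G2/M mast cells. Many genes that passed 2-fold against the compared cells did not do so here, among them Plk1, Ccna2, Birc5, Kif2c, Hdc and Btg1. The same held for Mrgprb1 (51.8 CPM against 35.6 CPM) and Mrgprb2 (20.4 CPM against 15.4 CPM). It also held for Il13 (13.8 CPM against 10.2 CPM) and Ctsg (534 CPM against 464 CPM). Depth was close, with medians of 19900 and 24063 UMIs, and the Cafum tag alone marked 55.2% of G2/M mast cells and 78.1% of the cells over the limit. The part of the tags in these ratios was not tested.

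**Figure D3:**
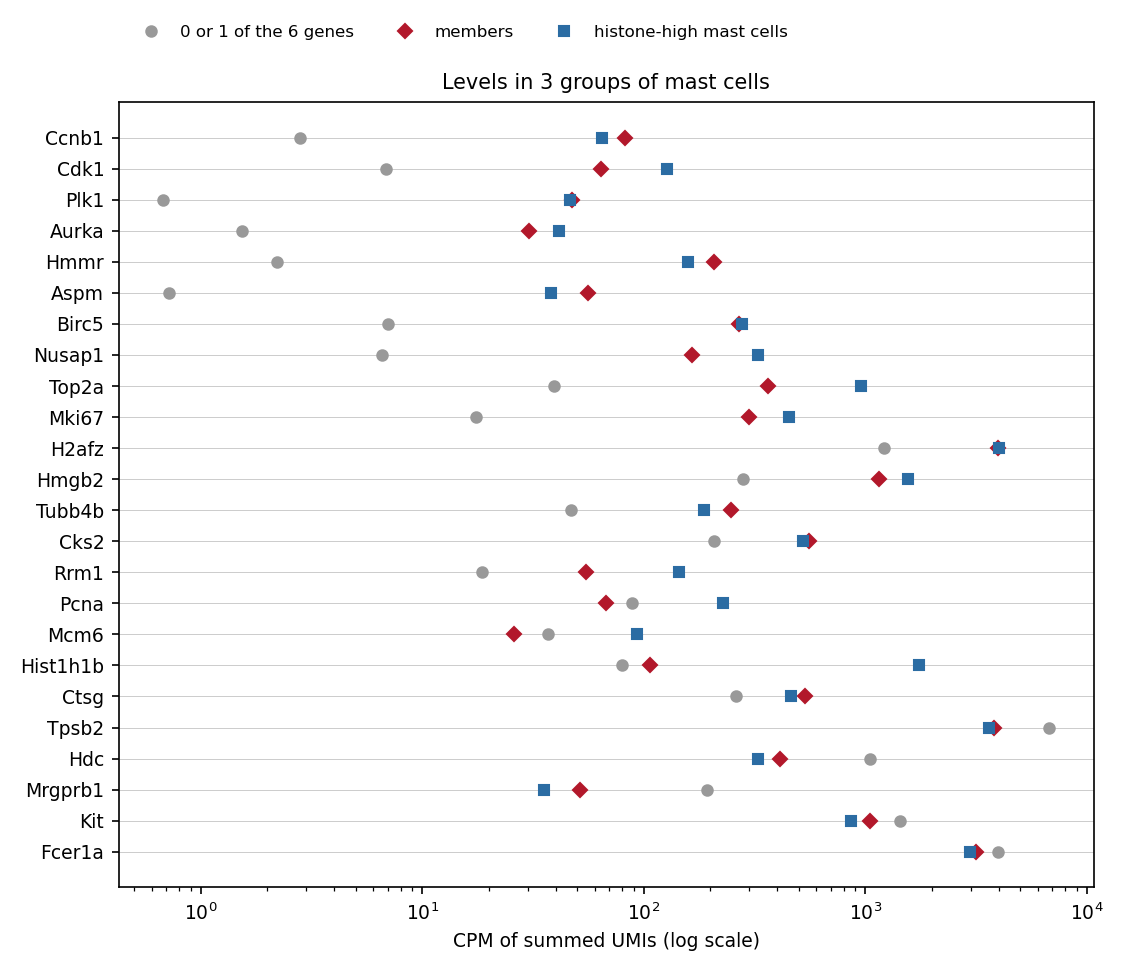
CPM of 24 genes (rows, log axis) in mast cells with 0 or 1 of the 6 genes (grey circles), G2/M mast cells (red diamonds) and mast cells over the histone limit (blue squares), each from UMIs summed over all cells of 1 library, so there are no error bars. Plk1, Birc5 and H2afz coincide in the last 2 groups, and Top2a, Pcna and Hist1h1b lie lower in G2/M mast cells.

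Whether all of the selected cells fit the label was checked with 8 markers of G2 and mitosis that the rule did not use: Plk1, Aurka, Hmmr, Tpx2, Top2a, Cdk1, Kif20a and Nusap1. All 8 were at least 2-fold higher in the cells with 5 and with 6 of the 6 genes, by 5.13-fold (Top2a) to 79.8-fold (Hmmr) with 5 and by 14.1-fold (Tpx2) to 140-fold (Hmmr) with 6. The 668 cells with 4 of 6 went only partly with the label. There Hmmr was 44.8-fold, Plk1 16.4-fold, Kif20a 14.8-fold and Tpx2 4.47-fold higher than in the compared cells, while Aurka (1.88-fold), Top2a (1.73-fold) and Cdk1 (1.5-fold) did not reach 2-fold. The cells with 4 of 6 carried some genes of G2 and mitosis, with Cdk1, Top2a and Aurka much less raised than Hmmr, Plk1 and Kif20a. G2/M mast cells is therefore the name of the whole class, not of each cell in it.

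Levels in cells thinned to 6000 UMIs climbed along the count of the 6 genes, with different shapes. Hmmr stood at 1.57 CPM in cells with none of the 6 genes, 32.4 CPM with 3, 112 CPM with 4, 210 CPM with 5 and 310 CPM with 6. Plk1 went from 0.681 CPM with none to 11.1 CPM, 36.1 CPM and 83.2 CPM with 4, 5 and 6. Top2a was 25.8 CPM with none, 45.5 CPM with 3 and 66.6 CPM with 4, then 191 CPM with 5 and 641 CPM with 6. The step from 4 to 6 was thus 9.62-fold for Top2a and 2.77-fold for Hmmr. Cdk1 (10.6 CPM, 40.3 CPM and 118 CPM) and Nusap1 (25.4 CPM, 105 CPM and 297 CPM), which bundles spindle microtubules, had the shape of Top2a. H2afz was already at 2022 CPM with 2 of 6 and 3202 CPM with 3, from 1091 CPM with none, and reached 4586 CPM with 6. Over the same 7669 genes, 116 were at least 2-fold higher than in the compared cells with 4 of 6, 183 with 5 and 282 with 6, and 57, 91 and 171 were lower. The spindle list had 21, 24 and 30 of 33 genes higher at these counts, and the passenger complex 3, 4 and 4 of 4.

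**Figure D4:**
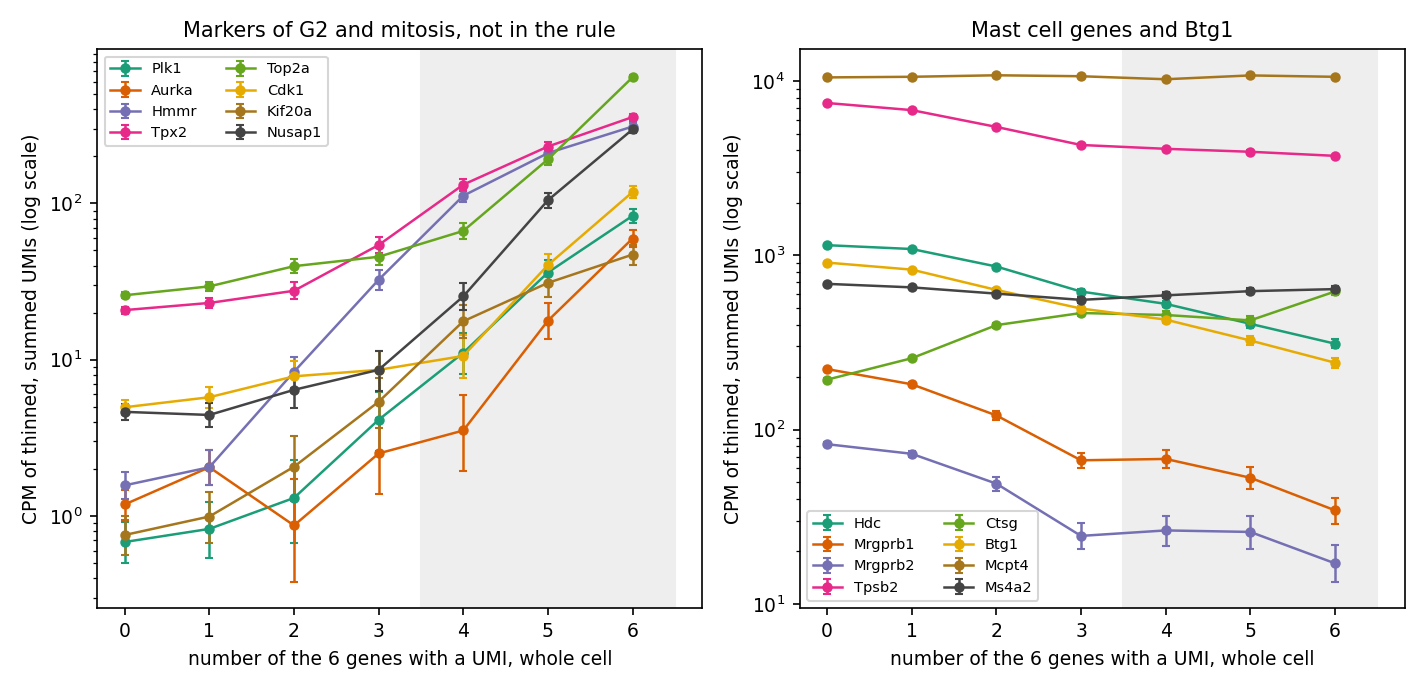
CPM of thinned, summed UMIs (vertical axes, log scale) against the number of the 6 genes with a UMI in the whole cell (horizontal axes), in mast cells under the histone limit, with 8 unused markers of G2 and mitosis at left and mast cell genes with Btg1 at right; bars are exact 95% Poisson intervals and the shaded range marks G2/M mast cells. Hmmr climbs from 1.57 to 310 CPM, and Hdc descends from 1144 to 311 CPM.

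Of 16 compared inhibitors, D cyclins and quiescence genes, 2 were at least 2-fold lower and none higher (median -0.14), with 6 above 0 and 10 below, and the highest at 0.58. Btg1, an antiproliferative gene (chr10:96617006-96622809, plus strand), ranged from 0 to 14 UMIs with a median of 1 in thinned G2/M mast cells and from 0 to 28 with a median of 5 in the compared cells. Summed, it stood at 344 CPM against 824 CPM, a log2 ratio of -1.26 (-1.29 to -1.24). Per whole cell this was 7.48 against 9.83 UMIs, in cells with a mean of 21754 and 11930 gene UMIs in all. Klf2, a transcription factor linked to quiescence, stood at 151 CPM against 332 CPM (-1.14), and its ratio was under 2-fold with Cafum cells only (-0.96), in cells of 10000 to 20000 UMIs (-0.98) and with Cpa3 and Cma1 required at 3% (-0.99). Cdkn1a, which encodes the inhibitor p21, stood at 236 CPM against 367 CPM (-0.64), and Ccnd2, cyclin D2, at 206 CPM against 311 CPM (-0.60).

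The G2/M mast cells carried the RNA of mast cells, with many of these genes at lower CPM than in the compared cells. Below 0 lay 17 of 19 receptor and signalling genes, 14 of 18 mast cell transcription factors and 8 of 13 granule proteases, while 5 of 8 lipid mediator genes lay above 0. Of the defining markers that the rule did not use, Ms4a2, the beta chain of the IgE receptor, stood at 621 CPM against 673 CPM, Fcer1a, its alpha chain, at 3174 CPM against 3958 CPM, Kit, the stem cell factor receptor, at 1048 CPM against 1442 CPM and Gata2, a transcription factor of the lineage, at 523 CPM against 694 CPM. Hdc, another such marker, was at least 2-fold lower and is described with the mediator genes. The tryptase marker Tpsab1 was found in 14.6% of thinned G2/M mast cells and 18.0% of compared cells. Of 13 compared granule proteases 1 was at least 2-fold higher and none lower (median -0.08). Mcpt4, a chymase, ranged from 0 to 193 UMIs with a median of 61 in thinned G2/M mast cells and from 0 to 307 with a median of 59 in the compared cells, and was flat along the count of the 6 genes, from 10496 CPM with none to 10579 CPM with all 6. Tpsb2, a tryptase, had a median of 22 UMIs per thinned cell (1 to 80) against 41 (0 to 216), and stood at 3795 CPM against 6772 CPM (-0.84). Counted per whole cell, Tpsb2 was nearly equal, with 82.6 and 80.8 UMIs.

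Ctsg, cathepsin G, a protease shared with neutrophils and their progenitors (chr14:56099881-56102574, minus strand), was the protease past 2-fold. It stood at 534 CPM against 262 CPM, a log2 ratio of 1.03 (1.01 to 1.05). Thinned, it was found in 55.7% of G2/M mast cells, 32.7% of compared cells and 54.5% of mast cells over the histone limit. Of thinned macrophage and fibroblast barcodes, 9.62% and 10.5% held it. Along the count of the 6 genes, thinned Ctsg stood at 193 CPM with none, 398 CPM with 2 and 467 CPM with 3. It was 455 CPM with 4, 423 CPM with 5 and 620 CPM with 6, so cells outside the selection already lay higher. Single cells differed widely, from 0 to 74 UMIs with a median of 1 in thinned G2/M mast cells and from 0 to 43 with a median of 0 in the compared cells. The ratio stayed above 0 but under 2-fold without the histone limit (0.98), with Cafum cells only (0.84), after division of all ratios by their median (0.97) and in cells of 10000 to 20000 UMIs (0.89). The neutrophil and progenitor markers Elane and Ly6g were at 0 in G2/M mast cells, and the 6 genes of that list summed to 2.46 CPM against 2.85 CPM.

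Among mediator genes, all 7 compared genes of histamine and serotonin had ratios under 0 and 1 was at least 2-fold lower (median -0.65, against 0.06 over all genes). Hdc, histidine decarboxylase, the enzyme that makes histamine (chr2:126593667-126619299, minus strand), ranged from 0 to 23 UMIs with a median of 1 in thinned G2/M mast cells and from 0 to 51 with a median of 5 in the compared cells. Summed, it stood at 410 CPM against 1051 CPM, a log2 ratio of -1.36 (-1.38 to -1.34). Along the count of the 6 genes it went from 1144 CPM with none to 863 CPM with 2, 527 CPM with 4 and 311 CPM with 6, so that cells outside the selection already lay lower. Slc18a2, which loads amines into granules, stood at 306 CPM against 481 CPM (-0.65) and Tph1, which makes serotonin's precursor, at 2433 CPM against 2721 CPM (-0.16).

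Of 19 compared receptor and signalling genes 2 were at least 2-fold lower and none higher. Their median was -0.23 against 0.06 over all genes, and 17 of the 19 lay below 0. Mrgprb1 (chr7:48444113-48456342, minus strand), a member of the Mas-related receptor family, stood at 51.8 CPM against 192 CPM, a log2 ratio of -1.89 (-1.95 to -1.83). It was the second lowest of all compared genes by ratio and was also lower per whole cell, with 1.13 against 2.29 UMIs. Mrgprb2, the receptor for basic secretagogues on mast cells, stood at 20.4 CPM against 73.2 CPM (-1.84). In thinned cells just outside the selection, with 3 of 6, both were already about as low as with 4. Mrgprb1 stood at 66.7 CPM and 67.9 CPM, from 222 CPM with none. Mrgprb2 stood at 24.6 CPM and 26.4 CPM, from 82.5 CPM with none. With 6 of 6 they were at 34.4 CPM and 17.1 CPM. Il1rl1, the receptor for interleukin 33, stood at 1334 CPM against 2340 CPM (-0.81). None of the survival and growth genes passed 2-fold (19 compared, median -0.46), with Socs2 at -0.98 and Pim1 at -0.92, both targets of cytokine signalling through STAT5. This count turned on small moves: Socs2 was past 2-fold lower in 9 alternative settings (to -1.14) and Pim1 in 3 (to -1.08). Of 16 immediate early genes, which stress and handling can also induce, 1 was at least 2-fold lower (median -0.68): Egr2 stood at 18.6 CPM against 41.6 CPM (-1.16), and was just under 2-fold in 3 settings, such as -0.98 with Cpa3 and Cma1 required at 3%. None of 13 proteoglycan genes, 18 mast cell transcription factors or 8 lipid mediator genes passed 2-fold, with medians of -0.33, -0.24 and 0.14. Over all genes only 2.56% were higher and 1.1% lower, so lists this short can hold no call.

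Of the 84 lower genes, 78 belonged to no list. The lowest ratios were those of Nlgn1, a synaptic adhesion gene (9.81 CPM against 39.5 CPM, -2.01), Epha5, a guidance receptor (16.7 CPM against 60.2 CPM, -1.85), and Slit2, a guidance ligand (29.5 CPM against 98.8 CPM, -1.74), besides Mrgprb1, Mrgprb2 and the predicted genes Gm14010 and Gm4847. Il13, the cytokine interleukin 13, stood at 13.8 CPM against 39.0 CPM. Thinned, Il13 was at 21.0 CPM in cells with 3 of the 6 genes and 19.6 CPM with 4. All 84 had fewer UMIs per whole cell as well, but only 3 of them by 2-fold or more. Housekeeping groups gave no calls, where 2.56% of all genes were higher and 1.1% lower. None of 76 ribosomal protein genes passed 2-fold (median 0.08). None of 79 oxidative phosphorylation genes did, though 74 of these lay above 0 (median 0.40).

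Markers of most other cell types differed little between the groups. The 12 macrophage markers summed to 76.9 CPM in G2/M mast cells against 75.5 CPM, and the 6 fibroblast markers to 209 CPM against 222 CPM, both partly held down by the rule. Of endothelial markers Pecam1, which mast cells can carry, stood at 89.3 CPM against 89.1 CPM and Cdh5 was at 0. T cell markers summed to 0.389 CPM against 0.658 CPM with Lck at 0, B cell markers to 0.511 CPM against 0.508 CPM and smooth muscle markers to 4.09 CPM against 1.33 CPM. The haemoglobin genes Hba-a1 and Hbb-bs stood at 24.0 CPM and 62.3 CPM, against 30.6 CPM and 88.4 CPM in the compared cells and 2.36 CPM and 6.74 CPM in the cells over the histone limit. In cells of 10000 to 20000 UMIs the log2 ratios of Hba-a1 and Hbb-bs to the compared cells were -3.97 and -4.48, in place of -0.35 and -0.50, and with Cafum cells only they were 0.95 and 0.62. Among basophil markers Mcpt8 stood at 15.6 CPM against 9.16 CPM and Prss34 at 25.9 CPM against 43.9 CPM. The part of these in the results was not tested.

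Some values rest on how reads were assigned. Ube2c, Cdc20, Ccna2, Nusap1, Kif20a, Nek2, Knstrn, Tubb4b, Plk1, Nlgn1, Ccnd2, Tuba1b, Hist1h2ae and Xist overlap 1 or more genes on the opposite strand. Tuba1b, Xist and Top2a overlap 1 or more genes on their own strand. Whether the counting used strand is not given in the sources used here. Clustered histone genes are near-identical copies, and their RNA mostly lacks the poly(A) tail that the library captures, so their levels are uncertain. Mrgprb1 and Mrgprb2 belong to a family of similar genes, between which reads could also be split.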

How the data were processed

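The deposited matrix held raw UMI counts of 32285 genes and 3 tags in 34813 barcodes, made by the authors with Cell Ranger 7.0.0 per the file header. The submitters' processing notes also list STAR, build mm10, R 4.1.3 and Seurat 4.1.1. Whether introns or strand were counted is not given in the sources used here. Of the barcodes, 849 failed the filters on genes, UMIs and mitochondrial share. Symbols shared by several genes (38) were left out of lists and named genes.

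Counts were summed over the cells of a group and given as CPM, with exact Poisson intervals, and ratios with exact conditional binomial intervals (95%). Genes with a mean CPM of at least 10 were compared, and at least 2-fold counted as higher or lower. With 1 library there was no test across samples. The script was tested on simulated data with known folds. Cells were thinned once at random to 6000 UMIs, leaving out shallower cells. Scrublet, run in scanpy 1.11.5 on all 34813 barcodes, called 4833 doublets at a threshold of 0.5258, and these were kept. Coordinates came from the GENCODE annotation of GRCm38, in which 32158 gene identifiers were found, and promoters from RefSeq. Python 3.11.15, numpy 2.4.6, scipy 1.17.1 and pandas 2.3.3 were used.

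The members, the 36 gene lists and the tag rule were chosen with earlier results of these data known. Genes to name were taken from several groups, and not every gene of a group is named. These were the genes of the rule, the 20 highest and 20 lowest ratios, the cell type markers and Xist. They also were the 10 highest and 10 lowest ratios against the cells over the histone limit. In each list, they were the 5 genes of highest mean CPM and the 3 of largest and 3 of smallest ratio. Alternatives are given in the closing section.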

Additional observations from a re-analysis of the deposited data

How the results depend on the processing

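The share of G2/M mast cells (7.76%) followed the rule and the depth. It was 11.6% with 3 or more of the 6 genes, 5.02% with 5 or more, 12.6% without the histone limit, 6.69% with a limit of 500 CPM, 5.14% with Cpa3 and Cma1 required at 3%, 7.36% without called doublets, 8.24% among Cafum cells, 4.23% with the rule applied to thinned cells and 8.19% in cells of 10000 to 20000 UMIs. The last setting was chosen after seeing the data. The 196 higher genes became 334 without the histone limit, 3445 of 20609 genes without a filter on low values, 67 with a mean of at least 50 CPM and 592 at 1.5-fold. The 84 lower genes became 132, 583, 28 and 399 in the same settings, and 149 without called doublets, 51 among Cafum cells, 174 with the rule on thinned cells, 140 as a mean of single-cell CPM and 148 in cells of 10000 to 20000 UMIs, where 71 of the 84 were again lower and 170 of the 196 again higher. The cause of these moves was not tested, except that a changed filter or fold changes the genes counted by construction. In the remaining settings 150 to 263 genes were higher and 68 to 125 lower. Over 17 settings, 3 of the 280 called genes took the opposite sign in at least 1. No named gene past 2-fold did, and over the 114 named genes 1844 of 1938 values stayed on the same side of 2-fold and within 0.5 of the reported log2 ratio. Without the histone limit the log2 ratios of Aurkb (4.16), Incenp (2.49), Asf1b (3.32), Ncapg (3.43), Cdk1 (3.84) and Nusap1 (5.32) were over 1.5 times larger as folds. Top2a was 2.59 in cells of 10000 to 20000 UMIs and Hmmr 5.87 with the rule on thinned cells. No paired analysis was possible because there is 1 library. With 1 library, no replicate and unequal depth, the intervals say nothing of how other mice or colonies would vary, and genes under the mean of 10 CPM were not compared at this depth.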

Other observations

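Among the 75 higher genes of no list, chosen for mention after their values were seen, were further genes with known roles beside division. Nucks1, a chromatin protein, stood at 681 CPM in G2/M mast cells against 164 CPM in the compared cells (log2 2.06), and Ptma, prothymosin alpha, which binds histones, at 2225 CPM against 954 CPM (1.22). Pclaf, which binds the replication clamp, stood at 299 CPM against 40.9 CPM (2.87), and at a log2 ratio of -1.60 to the mast cells over the histone limit. Hp1bp3, a linker-histone-like protein, stood at 331 CPM against 153 CPM (1.11) and was also 0.98 higher than in the cells over the limit.

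Among the 78 lower genes of no list, likewise chosen after their values were seen, Ccl7, a monocyte chemokine, stood at 213 CPM against 540 CPM (-1.34), Txnip, an inhibitor of thioredoxin and of glucose uptake, at 200 CPM against 435 CPM (-1.12), Igf1r, the receptor for insulin-like growth factor, at 31.7 CPM against 79.3 CPM (-1.32), and Il18r1, a receptor chain for interleukin 18, at 74.2 CPM against 151 CPM (-1.03).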
